A study of Homo sapiens with 6 samples.

Results

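Notch signalling was examined in 5637 cells, an established human bladder carcinoma line, through 10 genes chosen by name from the deposited expression values: the receptors NOTCH1, NOTCH2 and NOTCH3, the ligands JAG1, JAG2 and DLL1, the coactivator MAML1, and the target genes HES1, HEY1 and NRARP. All 10 were found among the 23024 gene symbols listed. The comparison asks how these genes stand when RAD51C, a DNA repair gene proposed by the series as a hub gene in bladder cancer, is lowered. It sets 3 libraries named NC, with the genotype given as WT, against 3 libraries named sh-RAD51C, with the genotype given as RAD51C knockdown. All 6 were made from total RNA of transfected cells. The meaning of NC, the hairpin sequence, the time after transfection, and the cultures behind each library are not stated in the labels. P-values therefore set a group difference against the variation among these particular libraries, part or all of which may be technical.

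Notch receptors are single-pass membrane proteins that are activated by ligands of the Jagged and Delta families on a neighbouring cell. Ligand binding lets an ADAM protease and then gamma-secretase cut the receptor, and the freed intracellular part enters the nucleus, binds the DNA-binding protein RBPJ and recruits Mastermind coactivators such as MAML1. HES and HEY genes, which encode transcriptional repressors, and NRARP, which encodes a feedback inhibitor of the pathway, are classical targets. In stratified epithelia Notch signalling is known for promoting differentiation, and in the urothelium it has been described as tumour suppressive. The libraries measure RNA only, and receptor cleavage was not measured.

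Levels are given in FPKM, which corrects for library size and gene length and so allows genes to be compared with each other. Whole reads could be inferred from the FPKM, with totals from 36068282 to 38079825 reads per library. RAD51C itself held 14.7, 13.2 and 13.6 FPKM in NC 1, 2 and 3 and 3.51, 3.09 and 2.95 FPKM in sh-RAD51C 1, 2 and 3 (limma log2 fold change -1.83 ± 0.064, SE; adjusted p = 7.16e-09), below the NC range in all 3 knockdown libraries. Of 11 urothelial and epithelial markers 9 averaged at least 1 FPKM (sums of 2906 to 2997 FPKM in NC and 2664 to 2767 FPKM in sh-RAD51C), while the uroplakins UPK2 and UPK3A stayed under 0.3 FPKM. These 9 moved in both directions by limma: KRT5, TP63, KRT19 and CDH1 were lower (log2 fold changes of -1.19, -0.67, -0.66 and -0.11), and KRT7, KRT18, GATA3, EPCAM and KRT8 were higher (0.75, 0.71, 0.6, 0.5 and 0.33). None of 7 endothelial markers averaged 1 FPKM, with summed levels of 0.182 to 0.33 FPKM in NC and 0.36 to 0.501 FPKM in sh-RAD51C. COL1A1 alone of 5 measured fibroblast markers reached that level (sums of 9.74 to 10.5 and 6.62 to 7.38 FPKM), and so did CD14 alone of 3 measured blood cell markers (1.47 to 1.78 and 0.377 to 0.98 FPKM). Both of these were lower in sh-RAD51C. The other measured fibroblast markers reached at most 0.169 FPKM in any library (PDGFRB), and the other measured blood cell markers at most 0.0357 FPKM (LYZ). COL1A2 and PTPRC, which are among them, were under 0.02 FPKM in every library. The part of the marker changes in the results below was not tested.

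Sequence upstream of the genes is shown for HES1, the gene where Notch input at a promoter is best known, and for the 3 genes that fell furthest among those with an entry in the RefSeq promoter table (GRCh38.p14). Each is the 250 bases before the annotated start, 5′ to 3′ on the strand of the gene. Capitals mark matches on either strand to TGGGAA, the core of the RBPJ motif, and to CACGNG, a box bound by HES and HEY repressors. The windows are chr3:194135898-194136147 on the plus strand, and chr9:137302272-137302521, chr9:136546049-136546298 and chr19:15200996-15201245 on the minus strand.
HES1: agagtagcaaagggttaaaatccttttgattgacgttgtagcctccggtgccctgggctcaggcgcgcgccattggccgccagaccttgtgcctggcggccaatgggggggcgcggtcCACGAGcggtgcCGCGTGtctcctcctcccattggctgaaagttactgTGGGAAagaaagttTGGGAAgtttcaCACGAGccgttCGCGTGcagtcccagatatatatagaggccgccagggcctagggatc
NRARP: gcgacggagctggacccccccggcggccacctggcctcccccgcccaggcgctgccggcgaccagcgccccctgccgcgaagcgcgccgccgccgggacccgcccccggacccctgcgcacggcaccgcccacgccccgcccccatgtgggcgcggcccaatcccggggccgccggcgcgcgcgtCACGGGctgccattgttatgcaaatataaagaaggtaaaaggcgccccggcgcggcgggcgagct
NOTCH1: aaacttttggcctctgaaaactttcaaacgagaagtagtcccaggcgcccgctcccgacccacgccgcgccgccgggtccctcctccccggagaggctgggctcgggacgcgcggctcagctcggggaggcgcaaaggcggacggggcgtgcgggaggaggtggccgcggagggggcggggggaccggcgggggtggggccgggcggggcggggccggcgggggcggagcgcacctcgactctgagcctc
NOTCH3: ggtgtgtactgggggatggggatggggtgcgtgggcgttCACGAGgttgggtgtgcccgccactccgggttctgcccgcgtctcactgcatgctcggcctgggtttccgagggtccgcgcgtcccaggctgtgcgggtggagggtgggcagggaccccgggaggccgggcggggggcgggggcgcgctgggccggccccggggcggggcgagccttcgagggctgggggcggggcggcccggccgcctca

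The HES1 window held 2 TGGGAA matches, both on the strand of the gene, starting 84 and 70 bases before the start. The first of them lay within the longer form GTGGGAA. Of 35116 promoters of the same length, 20.8% held TGGGAA at least once, 2.9% held it 2 or more times, and 5.43% held GTGGGAA. HES1 was the only 1 of 8 genes in the table with a match to TGGGAA, the others being NOTCH1, NOTCH2, NOTCH3, JAG1, JAG2, MAML1 and NRARP. The box CACGNG occurred 4 times in the HES1 window, 2 times in that of JAG2, and once each in those of NRARP and NOTCH3, against 26.7% of all promoters with at least 1 match; the motifs do not overlap in these windows. The windows of NRARP, NOTCH1 and NOTCH3 were rich in G and C (78.4%, 76% and 78%), beside 59.2% for HES1 and a median of 58% over all promoters. A match describes the letters and is not a measured site. DLL1 and HEY1 had no entry.

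Both NOTCH1 and NOTCH3 and all 3 target genes were lower in the knockdown libraries, and so was the ligand JAG2. NOTCH1, NOTCH3, HEY1 and NRARP stood at 29.9% to 34.9% of their NC means, HES1 and JAG2 at 74.7% and 77.9%, and NOTCH2, JAG1, DLL1 and MAML1 were not called. In all, 6 of the 10 genes were called lower and 0 higher (limma, Benjamini-Hochberg adjusted p under 0.05 over the 11152 genes averaging 1 FPKM or more), where 26.2% of all tested genes were called lower and 23.2% higher. A log2 fold change of -1 or below was reached by 4 of the 10 and by 0.995% of all tested genes. The groups did not overlap in 8 of the 10, with sh-RAD51C lower in 7 and higher in 1, while 30.8% of all genes were lower and 27.6% higher without overlap. The median log2 fold change was -0.37 over the 10 genes and -0.011 over all genes tested. Because the 10 genes were chosen with earlier results of these data known, these shares do not test the list. In bulk RNA, fewer cells expressing a gene and less RNA per cell cannot be told apart.

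**Figure D1:**
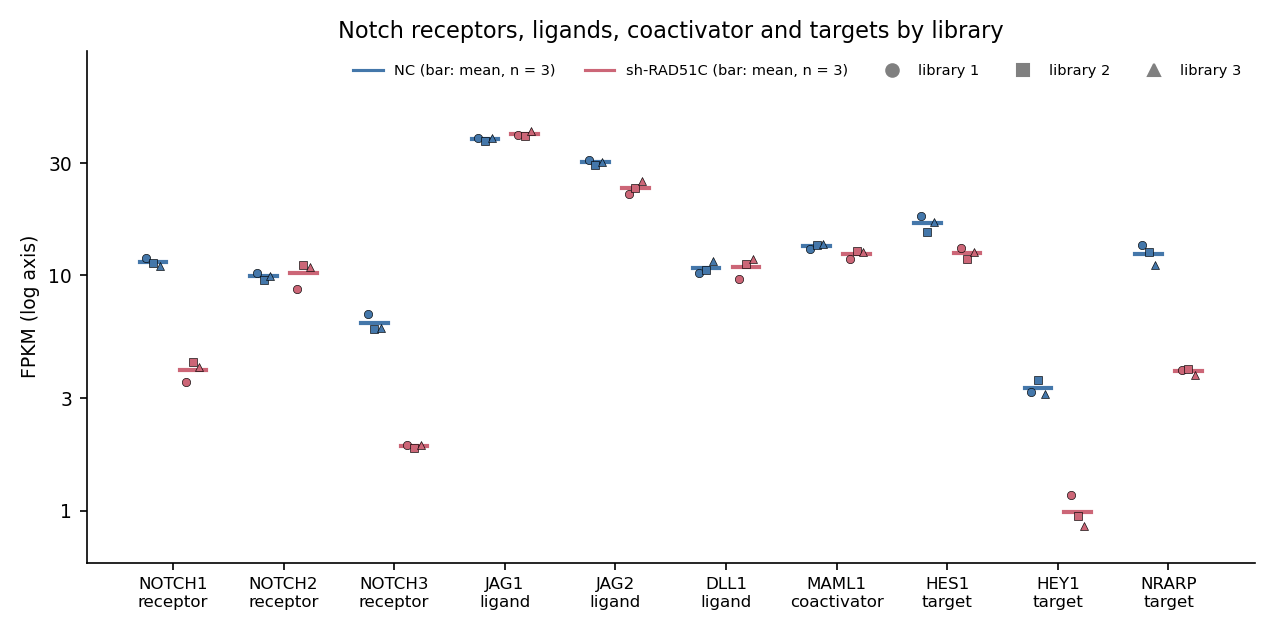
FPKM (log axis) of the 10 genes in each of the 6 libraries; points are libraries, bars are group means, blue for NC and red for sh-RAD51C. NOTCH1, NOTCH3, HEY1 and NRARP separate by a wide gap, whereas NOTCH2 and DLL1 overlap between groups.

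NOTCH1 (ENSG00000148400.10, chromosome 9 from 136494433 to 136545786, minus strand, GENCODE 29 on GRCh38) encodes the receptor best known for driving epithelial differentiation. It held 11.8, 11.2 and 11.0 FPKM in NC 1, 2 and 3, behind which stood 4069, 4034 and 3949 inferred reads. Levels of 3.50, 4.27 and 4.09 FPKM were found in sh-RAD51C 1, 2 and 3, from 1276, 1517 and 1488 reads. Every knockdown library was thus below every NC library, and the lowest was sh-RAD51C 1. The mean fell from 11.3 ± 0.412 to 3.96 ± 0.403 FPKM (SD, n = 3 each), 2.87-fold (limma log2 fold change -1.32 ± 0.065, SE; adjusted p = 6.87e-08). Placed among all 11152 genes from the largest fall upward, NOTCH1 was number 50.

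NOTCH3 (ENSG00000074181.8, chromosome 19 from 15159038 to 15200981, minus strand), a receptor studied most in vascular smooth muscle and in several carcinomas, lay directly beside it at number 49 by change in log2(FPKM + 1). By the ratio of mean FPKM, NOTCH3 fell further, 3.31-fold beside 2.87-fold for NOTCH1. Its levels were 6.86, 5.90 and 5.96 FPKM in NC 1, 2 and 3 and 1.91, 1.85 and 1.90 FPKM in sh-RAD51C 1, 2 and 3. The knockdown libraries were nearly equal to each other, and NC 1 was the highest of all. The mean fell from 6.24 ± 0.537 to 1.88 ± 0.0299 FPKM (SD, n = 3 each; log2 fold change -1.33 ± 0.066, SE; limma adjusted p = 6.87e-08).

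NOTCH2 (ENSG00000134250.19, chromosome 1 from 119911553 to 120069626, minus strand), the remaining receptor with a measurable level, was not called. It held 10.2, 9.55 and 9.93 FPKM in NC 1, 2 and 3 and 8.75, 11.1 and 10.9 FPKM in sh-RAD51C 1, 2 and 3. The groups overlapped, because sh-RAD51C 1 lay below all NC libraries and the other two lay above them. The log2 fold change was 0.04, with a 95% confidence interval of -0.13 to 0.21 (limma adjusted p = 0.689). Without sh-RAD51C replicate 1 it was 0.14 and NOTCH2 was called higher (limma adjusted p = 0.0342). That library also stood low for long genes in general: over 1714 genes of at least 8000 bases its median deviation from the other two was -0.107 on the log2 scale, beside -0.0124 over all genes. NOTCH1 and NOTCH3 are also long, and without that library their log2 fold changes were -1.25 and -1.33. Of the knockdown libraries, sh-RAD51C 1 was the lowest for NOTCH1 (3.50 FPKM) but the highest for NOTCH3 (1.91 FPKM). It was also the lowest for the shorter DLL1 (3785 bases, 9.67 FPKM). Whether gene length bears on the NOTCH2 value in that library was not tested. Reads of NOTCH2 can be shared with the near-identical NOTCH2NL copies, so its level is uncertain; NOTCH2NLA was listed at 0.621 ± 0.123 FPKM in NC and 0.588 ± 0.014 FPKM in sh-RAD51C (SD, n = 3 each).

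Summed receptor RNA was lower in the knockdown libraries, and NOTCH2 made up a larger share of it. The summed FPKM of the 3 receptors was 28.8, 26.7 and 26.9 in NC 1, 2 and 3 and 14.2, 17.2 and 16.9 in sh-RAD51C 1, 2 and 3, so the knockdown mean was 58.5% of the NC mean. NOTCH1 made up 41.3% ± 0.693 of that sum in NC and 24.6% ± 0.3 in sh-RAD51C (SD, n = 3 each). The share of NOTCH2 went from 36% ± 0.83 to 63.6% ± 1.53, and that of NOTCH3 from 22.7% ± 0.946 to 11.8% ± 1.44. Within a library, NOTCH1 stood at 1.16, 1.18 and 1.11 times NOTCH2 in NC 1, 2 and 3 and at 0.4, 0.385 and 0.376 times NOTCH2 in sh-RAD51C 1, 2 and 3. The log2 ratio of NOTCH1 to NOTCH2 differed by -1.57 between groups and that of NOTCH3 to NOTCH2 by -1.77, each without overlap (exact two-sided permutation p = 0.1, the smallest that 3 libraries against 3 allow, so the design cannot reach 0.05; Benjamini-Hochberg adjusted p = 0.133 over 8 gene pairs). NOTCH1 relative to NOTCH3 differed by 0.2, with overlapping groups (exact permutation p = 0.3, adjusted p = 0.343).

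**Figure D2:**
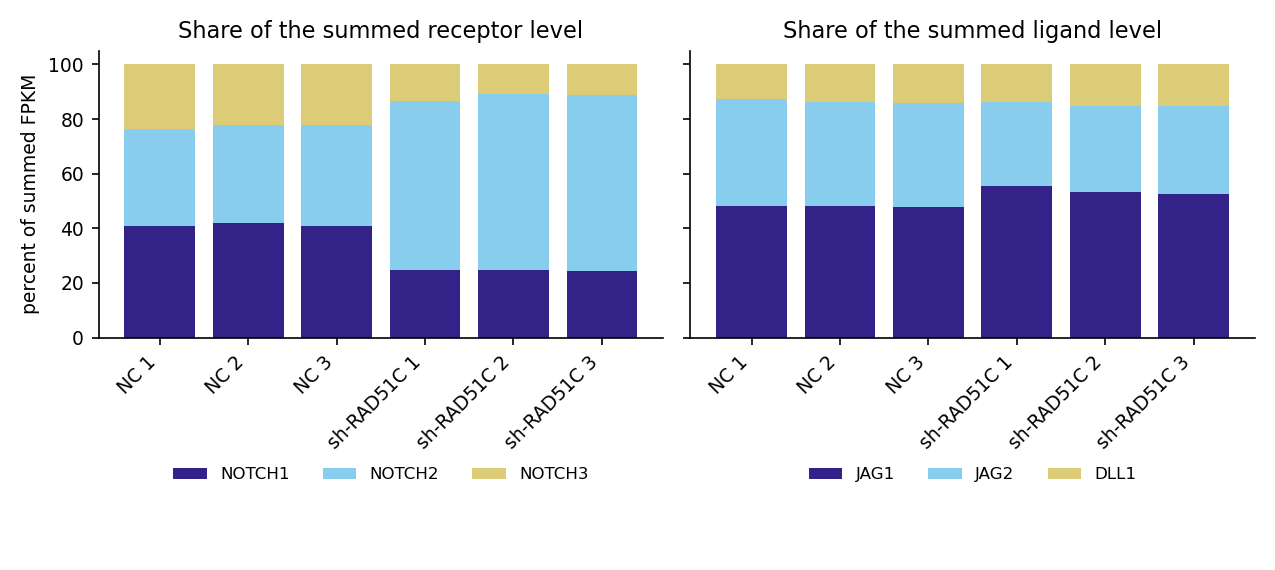
Share of each receptor (left) and each ligand (right) in the summed FPKM of its set, one stacked bar per library. NOTCH2 makes up 35.3% to 36.9% of receptor RNA in NC and 61.8% to 64.5% in sh-RAD51C, while the ligand shares shift less.

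Among the ligands only JAG2 was called. JAG1 (ENSG00000101384.12, chromosome 20 from 10637684 to 10673999, minus strand), the most abundant of the 10 genes in both groups, held 38.3, 37.1 and 38.2 FPKM in NC 1, 2 and 3 and 39.4, 39.2 and 41.1 FPKM in sh-RAD51C 1, 2 and 3. All knockdown libraries were slightly above all NC libraries, but the log2 fold change of 0.074 (95% confidence interval -0.0063 to 0.15) did not pass the test (limma adjusted p = 0.115). DLL1 (ENSG00000198719.8, chromosome 6 from 170282206 to 170306565, minus strand), a Delta-type ligand, held 10.2, 10.6 and 11.4 FPKM in NC and 9.67, 11.2 and 11.7 FPKM in sh-RAD51C, in the order of libraries 1, 2 and 3. Its groups overlapped, with a log2 fold change of 0.014 (95% confidence interval -0.14 to 0.16, limma adjusted p = 0.881).

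JAG2 (ENSG00000184916.8, chromosome 14 from 105140981 to 105168824, minus strand), the other Jagged ligand, held 31, 29.5 and 30.4 FPKM in NC 1, 2 and 3 and 22.1, 23.4 and 25.2 FPKM in sh-RAD51C 1, 2 and 3. The groups did not overlap, and sh-RAD51C 1 was lowest. The mean fell from 30.3 ± 0.748 to 23.6 ± 1.55 FPKM (SD, n = 3 each; log2 fold change -0.35 ± 0.048, SE; limma adjusted p = 0.000137). In each library JAG2 stood below JAG1, at a mean ratio of 0.799 ± 0.00744 in NC and 0.59 ± 0.0272 in sh-RAD51C (SD, n = 3 each; exact permutation p = 0.1, adjusted p = 0.133). The exons of JAG2 share 469 bases with AL512356.1 on the same strand, and those of JAG1 share 79 bases with the antisense gene AL050403.2; strand use in counting is not given in the sources used here, so reads there cannot be assigned to either gene. None of the other 8 genes shares exon bases with another annotated gene.

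Summed over the 3 ligands the level was 78.9 ± 1.53 FPKM in NC and 74.4 ± 3.42 FPKM in sh-RAD51C (SD, n = 3 each). Set against the receptor sum, ligand RNA was 2.76, 2.89 and 2.98 times as high in NC 1, 2 and 3 and 5.03, 4.29 and 4.62 times as high in sh-RAD51C 1, 2 and 3. The ratio was above 4 in every knockdown library and below 3 in every NC library.

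All 3 target genes fell, by different amounts. NRARP (ENSG00000198435.3, chromosome 9 from 137300482 to 137302251, minus strand) encodes a small ankyrin-repeat protein that binds the Notch transcription complex and limits it. It held 13.5, 12.5 and 11.0 FPKM in NC 1, 2 and 3 and 3.95, 4.00 and 3.76 FPKM in sh-RAD51C 1, 2 and 3, with 1096 to 1284 and 377 to 397 inferred reads. The lowest NC library was still well above the highest knockdown library. The mean fell from 12.4 ± 1.23 to 3.90 ± 0.128 FPKM (SD, n = 3 each), 3.17-fold (limma log2 fold change -1.44 ± 0.068, SE; adjusted p = 4.35e-08), number 37 from the largest fall.

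HEY1 (ENSG00000164683.16, chromosome 8 from 79764010 to 79767863, minus strand), a repressor of the HEY family, was the least abundant of the 10 genes. Its levels were 3.18, 3.61 and 3.12 FPKM in NC 1, 2 and 3 (285, 336 and 291 reads) and 1.16, 0.945 and 0.859 FPKM in sh-RAD51C 1, 2 and 3 (110, 87 and 81 reads). The groups were far apart, though each knockdown value rests on few reads. The mean fell 3.34-fold, from 3.3 ± 0.263 to 0.989 ± 0.157 FPKM (SD, n = 3 each). The limma log2 fold change was -1.11 ± 0.078 (SE; adjusted p = 8.43e-07). Adding 1 FPKM before taking logs compresses the change of a gene this low, and the value was -1.65 with a pseudocount of 0.1 FPKM.

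HES1 (ENSG00000114315.3, chromosome 3 from 194136145 to 194138732, plus strand), the repressor whose promoter holds the 2 TGGGAA matches shown above, fell less. It held 17.8, 15.3 and 16.9 FPKM in NC 1, 2 and 3 and 13.1, 11.7 and 12.5 FPKM in sh-RAD51C 1, 2 and 3. The groups did not overlap, and library 2 was the lowest in each. The mean fell from 16.7 ± 1.28 to 12.4 ± 0.698 FPKM (SD, n = 3 each; log2 fold change -0.39 ± 0.06, SE; limma adjusted p = 0.000278). Relative to HES1 in the same library, NRARP was at 0.744 ± 0.0845 in NC and 0.314 ± 0.0239 in sh-RAD51C, and HEY1 at 0.2 ± 0.0315 and 0.0794 ± 0.0103 (SD, n = 3 each; exact permutation p = 0.1 for both log2 ratios, adjusted p = 0.133). HEY1 relative to NRARP differed by -0.09 (log2), with overlapping groups (exact permutation p = 0.7, adjusted p = 0.7).

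MAML1 (ENSG00000161021.12, chromosome 5 from 179732850 to 179777286, plus strand), the Mastermind coactivator, held 13, 13.5 and 13.6 FPKM in NC 1, 2 and 3 and 11.8, 12.7 and 12.5 FPKM in sh-RAD51C 1, 2 and 3. Its groups did not overlap, but the log2 fold change of -0.11 (95% confidence interval -0.21 to -0.0054) did not pass the adjusted threshold (limma adjusted p = 0.0759).

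**Figure D3:**
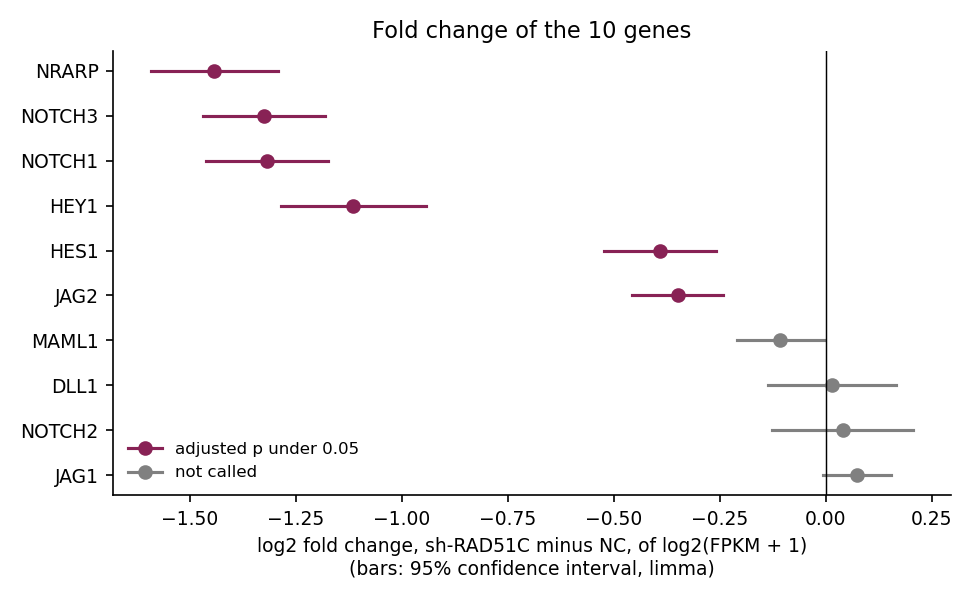
Log2 fold change (sh-RAD51C minus NC, of log2(FPKM + 1)) of the 10 genes with 95% confidence intervals from limma; purple marks an adjusted p under 0.05. NRARP, NOTCH3, NOTCH1 and HEY1 lie between -1.44 and -1.11, HES1 and JAG2 near -0.39 and -0.35, and the remaining 4 are not called.

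The order of the levels differed between the groups around the receptors and NRARP. In NC the genes ran JAG1, JAG2, HES1, MAML1, NRARP, NOTCH1, DLL1, NOTCH2, NOTCH3 and HEY1 from highest to lowest mean FPKM. Neighbours from MAML1 to DLL1 overlapped in range, MAML1 with NRARP, NRARP with NOTCH1 and NOTCH1 with DLL1. In sh-RAD51C the order was JAG1, JAG2, HES1, MAML1, DLL1, NOTCH2, NOTCH1, NRARP, NOTCH3 and HEY1. There HES1 overlapped with MAML1, DLL1 with NOTCH2, and NOTCH1 with NRARP. NOTCH1 and NOTCH2 changed places without overlap in either group. In NC, NOTCH1 at 11.0 to 11.8 FPKM stood above NOTCH2 at 9.55 to 10.2 FPKM. In sh-RAD51C, NOTCH2 at 8.75 to 11.1 FPKM stood above NOTCH1 at 3.5 to 4.27 FPKM.

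Genes elsewhere in the pathway moved in both directions. Of 68 listed, 65 were in the deposited values (DLK1, HES5 and GPR183 were not matched), and 52 of these averaged at least 1 FPKM. By limma, 21 were called lower, 8 higher and 23 were not called, beside 26.2% and 23.2% of all genes; the median log2 fold change was -0.099. Without NC replicate 1 or NC replicate 2 the number called higher was 5. The receptor NOTCH4 and the ligands DLL3 and DLL4 were under 0.2 FPKM in every library. DLK2, also under the filter and not tested, fell from 1.16 ± 0.158 to 0.823 ± 0.0811 FPKM (SD, n = 3 each), without overlap. DNER, a noncanonical Notch ligand known from neurons, was the 1 other ligand above the filter and rose from 4.14 ± 0.256 to 7.84 ± 0.39 FPKM (SD, n = 3 each; log2 fold change 0.78 ± 0.06, SE; limma adjusted p = 1.62e-06).

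Of the HES genes outside the 10, the 3 above the filter were all called lower, beside 26.2% of all tested genes. HES2, a HES family repressor, held 5.00, 4.67 and 4.04 FPKM in NC 1, 2 and 3 and 0.992, 1.11 and 1.15 FPKM in sh-RAD51C 1, 2 and 3 (log2 fold change -1.41 ± 0.076, SE; limma adjusted p = 1.2e-07). The added 1 FPKM compresses this change. Mean FPKM of HES2 fell 4.21-fold, and the log2 fold change was -1.97 with a pseudocount of 0.1 FPKM. HES4 fell from 16.5 ± 0.722 to 9.81 ± 0.75 FPKM (limma adjusted p = 2.82e-06). HES6, which is known to antagonise HES1, fell from 4.09 ± 0.152 to 2.85 ± 0.308 FPKM (SD, n = 3 each; limma adjusted p = 0.000616). HES7, under the filter and not tested, went the other way, from 0.496 ± 0.127 to 0.695 ± 0.0969 FPKM (SD, n = 3 each), without overlap. HEY2 and HEYL were under 0.06 FPKM in every library and were not tested.

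Among genes of the receptor cleavage step, 5 of 8 were called lower and 1 higher, beside 26.2% and 23.2% of all tested genes. The sheddase ADAM17 fell from 14 ± 0.493 to 11.1 ± 0.389 FPKM (SD, n = 3 each; limma adjusted p = 0.000254), and NCSTN, the gamma-secretase subunit nicastrin, fell by 0.2 on the log2 scale (limma adjusted p = 0.00157). Sugar transferases that modify the receptor had 1 lower and 2 higher of 6. LFNG, the fringe enzyme that shifts receptor preference between ligand families, fell from 22.1 ± 1.19 to 17.1 ± 1.12 FPKM (SD, n = 3 each; limma adjusted p = 0.000265). The O-fucosyltransferase POFUT1 rose by 0.13 (log2; limma adjusted p = 0.0188) and the O-glucosyltransferase POGLUT1 by 0.2 (adjusted p = 0.0292), but each call was lost in 5 alternatives, omission of single libraries among them (adjusted p up to 0.0623 for POFUT1 and 0.105 for POGLUT1).

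Genes of endocytosis and ubiquitination had 6 lower and 1 higher of 13, beside 26.2% lower and 23.2% higher of all tested genes. NEURL1B, a ubiquitin ligase that acts on Notch ligands, fell from 6.33 ± 0.0959 to 3.67 ± 0.163 FPKM (SD, n = 3 each; limma adjusted p = 3.13e-06). The Deltex family genes DTX2 and DTX4, whose relatives regulate Notch trafficking, fell by 0.53 and 0.31 on the log2 scale (limma adjusted p = 4.81e-06 and 0.000133). In the nuclear activator complex 2 of 8 were lower and 2 higher, close to the shares over all genes. RBPJ, the DNA-binding partner of the receptor, had a log2 fold change of 0.068 and was not called (limma adjusted p = 0.242). The acetyltransferase KAT2A rose by 0.3 and the Mediator kinase module cyclin CCNC by 0.17 (limma adjusted p = 4.83e-05 and 0.00597), and the Mastermind gene MAML2 fell by 0.22 (limma adjusted p = 0.013, or 0.0596 without the filter on low values).

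Corepressors had 4 lower and 1 higher of 13, beside 26.2% lower and 23.2% higher of all tested genes. The Groucho-type corepressor TLE1 rose from 10.7 ± 0.379 to 14.7 ± 0.559 FPKM (SD, n = 3 each; limma adjusted p = 2.76e-05). TLE4, a relative of TLE1, fell from 1.65 ± 0.226 to 1.11 ± 0.155 FPKM (SD, n = 3 each; limma adjusted p = 0.00757, or 0.0504 without the filter on low values).

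**Figure D4:**
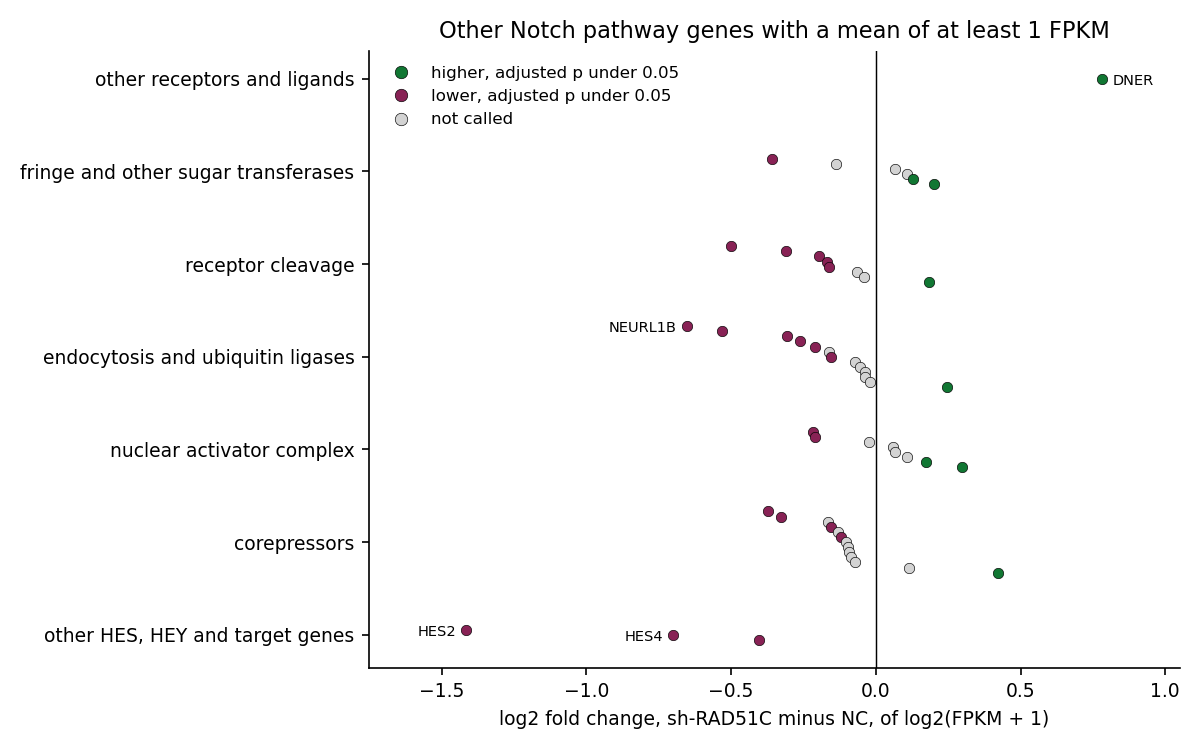
Log2 fold change (sh-RAD51C minus NC, of log2(FPKM + 1)) of the 52 other pathway genes averaging 1 FPKM or more, grouped by role; green marks genes called higher, purple lower and grey not called. HES2 lies far to the left at -1.41 and DNER to the right at 0.78, and most other genes lie between -0.5 and 0.5.

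The genes with profiles most like those of NRARP and NOTCH3, the 2 genes of the 10 with the largest fall in log2(FPKM + 1), were sought over the 6 libraries, as the smallest Euclidean distance between centred log2(FPKM + 1) profiles. For NRARP these were HES2 at a distance of 0.126, the desmosome gene PKP1 at 0.195 and NOTCH3 at 0.203. For NOTCH3 they were the hyaluronan synthase gene HAS2 at 0.13, the gap junction gene GJB2 at 0.148 and the sialyltransferase gene ST6GALNAC2 at 0.173. By the ratio of mean FPKM, HEY1 fell furthest of the 10 (3.34-fold, beside 3.31-fold for NOTCH3 and 3.17-fold for NRARP). Mean FPKM went from 4.57 in NC to 1.09 in sh-RAD51C for HES2 (4.21-fold) and from 2.95 to 0.537 for PKP1. Because log2(FPKM + 1) compresses low genes, a small distance does not mean an equal ratio of FPKM. The neighbouring genes had log2 fold changes from -1.41 to -1.25 on that scale. That they were lower in sh-RAD51C follows from choosing them by likeness over the same libraries, and is not a separate result.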

How the data were processed

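RNA sequencing libraries were prepared from 6 samples of 5637 cells. The deposited values are FPKM for each gene symbol, which the authors had computed. The submitters' processing notes name hg38 as the build and list R 3.2.0 and DESeq2 with no role stated. Aligner, counter, strand setting and annotation: not given in the sources used here. Titles matched all 6 columns to libraries, leaving 0 unused.

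Genes averaging 1 FPKM or more were kept, 11152 in number. Values were transformed as log2(FPKM + 1) and compared in limma 3.58.1 (R 4.3.3) with a variance trend and no covariate. P-values were adjusted by Benjamini-Hochberg across the kept genes, and calls are at an adjusted p under 0.05. The fit was also run on simulated counts with few changed genes and the same spread for all genes. That setting is simpler than these data, and no call rests on it. Ratios within libraries were compared by exact permutation (scipy 1.17.1). Whole reads were inferred for 99.8% of the genes kept, from the steps of the FPKM values and, for the total, 621 genes whose RefSeq length gave the same number. Where all 6 reads shared a factor, as for NOTCH3, the multiple nearest the longest GENCODE transcript was taken. Reads without molecular identifiers are not independent molecules.

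The 10 genes and all lists were chosen with earlier results of these data known. All 10 are described; of the other pathway genes, up to 3 per role with the smallest adjusted p are named, except for a few genes that are not reported here, and other genes are named as context. Profile neighbours are given for the 2 genes with the largest absolute fold change of log2(FPKM + 1), a scale that compresses low genes such as HEY1. The pseudocount, the filter, 3 rescalings, the variance trend, a replicate block and the omission of each library were varied. An alternative chosen after seeing the data was voom (limma) on inferred reads.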

Additional observations from a re-analysis of the deposited data

How the results depend on the processing

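Across 16 alternatives the direction and call of NOTCH1, JAG2, HES1 and NRARP held, as did those of NOTCH3 and HEY1 in the 15 that kept them; at a mean of at least 5 FPKM both drop out and 4 genes were called lower. JAG1 and MAML1 stayed uncalled (limma adjusted p from 0.0738 and 0.0595). Leaving out single libraries moved the log2 fold change of NOTCH2 from -0.016 (without sh-RAD51C replicate 2) and -0.0035 (without sh-RAD51C replicate 3) to 0.14 (without sh-RAD51C replicate 1, limma adjusted p = 0.0342), so that 0 to 1 of the 10 genes was called higher. For DLL1 it ran from -0.039 (without sh-RAD51C replicate 3) to 0.089, with -0.019 when NC 1 and -0.0073 when sh-RAD51C 2 was left out. These signs belong to values not called. The number of other pathway genes called higher ran from 5 to 9 when single libraries were left out.

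Over all genes, 1859 were called lower at a mean of at least 5 FPKM, where fewer were tested, against 2922. Same-numbered libraries are not said to be paired, and their deviations from the group means correlated at 0.19, 0.0257 and 0.0909 for numbers 1, 2 and 3; with the replicate number as a block 2601 genes were called higher and 2968 lower, and no call of the 10 genes changed. No rescaling moved the median of all genes by 0.1 or more on the log2 scale (-0.002 to 0.01). HEY1 in sh-RAD51C, with 81 to 110 reads per library, is the value most limited by depth among the 10.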
